A study of Mus musculus with 48 samples.

Results

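Liver and brown adipose tissue (BAT) were compared gene by gene, as liver minus BAT, in wild-type male mice housed at room temperature. The libraries were chosen by their labels alone, which gave 4 liver libraries (replicates 11, 12, 15 and 18) and 4 BAT libraries (replicates 12, 15, 17 and 18), 8 of the 48 in the series. The mice carried the genotype hepAGT+/+ and were littermates of hepAGT-/- mice, in which, per the series title, angiotensinogen, the precursor of the angiotensin peptides, was deleted in hepatocytes. Every group used here was fed a Western diet (21% milk fat, 0.2% cholesterol) for 12 weeks, so no group on a plain diet enters. Room temperature (RT) was 20 to 22 °C. The other groups used were hepAGT+/+ mice at thermoneutrality (TN, 30 °C) and hepAGT-/- mice at RT, each with 4 liver and 4 BAT libraries. The driver of the deletion, the age of the mice and whether a replicate number marks the same mouse in both tissues are not given in the sources used here.

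Both tissues burn fuel in mitochondria, for different ends. Hepatocytes make plasma proteins, glucose, urea, bile acids and ketone bodies, and they export most of what they make. Brown adipocytes store triglyceride in many small droplets and, when noradrenaline reaches their beta-adrenergic receptors, break it down and oxidise the fatty acids, while uncoupling protein 1 (Ucp1) lets protons back across the inner mitochondrial membrane so that the energy leaves as heat. RT is mildly cold for a mouse, so this heat production is in demand at RT and little needed at TN.

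3 promoters are shown because the data below turn on genes of their kind: a liver gene, a gene of thermogenesis and a gene of the respiratory chain. Each is given from 150 bases before the gene's start up to the start, from the RefSeq sequence of the GRCm38.p6 build, with the matched motif letters in capitals.
Alb (chr5:90460720-90460869, plus strand, HNF1 core GTTAAT in capitals): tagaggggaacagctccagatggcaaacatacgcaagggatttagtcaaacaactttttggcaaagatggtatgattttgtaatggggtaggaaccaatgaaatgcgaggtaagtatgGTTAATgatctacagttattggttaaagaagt
Dio2 (chr12:90739039-90739188, minus strand, cyclic AMP element TGACGTCA and TATAAA in capitals): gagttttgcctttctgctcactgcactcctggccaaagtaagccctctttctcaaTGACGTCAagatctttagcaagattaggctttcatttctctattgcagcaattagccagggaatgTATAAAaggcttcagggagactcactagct
Sdha (chr13:74350241-74350390, minus strand, 3 copies of the NRF-1 core in capitals): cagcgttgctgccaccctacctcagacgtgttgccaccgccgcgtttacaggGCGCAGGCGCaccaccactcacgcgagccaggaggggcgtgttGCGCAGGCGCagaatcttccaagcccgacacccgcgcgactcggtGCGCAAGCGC
Motifs were searched in the 250 bases before each gene's start, on both strands, with TATAAA taken only on the gene's own strand from 40 to 16 bases before the start. The NRF-1 core is the site of a known regulator of respiratory chain genes. Its whole string, as in capitals for Sdha, had to match, with any base at the sixth place. The core was in 13 of the 63 nuclear respiratory chain genes with a promoter in the table (20.6%) and in 4.23% of all 27025 such genes. Each gene was counted once over its starts. It was in 0 of 17 plasma protein genes. The HNF1 core, part of the site of a liver transcription factor, was in 4 of 17 plasma protein promoters (23.5%), in 1 of 63 respiratory chain promoters (1.59%) and in 7.49% of all. TGACGTCA was in 5 of 63 respiratory chain promoters (7.94%), in 1 of 17 thermogenesis promoters, that of Dio2, and in 1.77% of all. TATAAA was in 4 of 21 drug metabolism promoters (19.0%), in 3 of 17 thermogenesis promoters (17.6%), in 2 of 11 bile acid promoters (18.2%), in 1 of 17 plasma protein promoters (5.88%), in 0 of 63 respiratory chain promoters and in 2.41% of all. Base composition differed as well. The median share of G and C was 57.6% in respiratory chain promoters, 49.2% in plasma protein promoters and 52.4% in all. The median number of CG pairs in the 250 bases was 14.5, 3 and 6. The part of base composition in the motif shares was not tested. These matches describe letters and were not tested as binding sites.

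The labels matched the tissues' own markers. Alb, the gene of serum albumin, stood at 42480, 47010, 48960 and 34940 CPM (the gene's counts relative to the effective library total) in the 4 livers and at 67.8, 214, 24.7 and 7.34 CPM in the 4 BAT libraries. Ucp1 had 0 counts in the 4 livers and 4091, 9272, 6779 and 6666 CPM in BAT. Neither gene's groups overlapped. The 8 brown adipocyte markers summed to 7364 to 15645 CPM in BAT and 78.8 to 131 CPM in liver, where Ucp1, Zic1 and Ebf2 were at 0 in each library. The 10 hepatocyte markers summed to 63257 to 90573 CPM in liver and to 119, 426, 73.7 and 24.1 CPM in BAT replicates 12, 15, 17 and 18, which is 0.153%, 0.548%, 0.0949% and 0.031% of the liver mean. Hepatocyte transcripts were thus present at a low level in each BAT library, so a liver gene's level in BAT below 0.548% of its liver level lies in the range of that background, whose source was not tested. The 10 skeletal muscle markers summed to 6.37, 467, 83.6 and 3.32 CPM in BAT and 0.682 to 1.33 CPM in liver. Totals ran from 23711728 to 35050125 counts in liver and from 25304872 to 39383039 in BAT. In bulk tissue, fewer cells of a type and less RNA per cell cannot be told apart.

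Most tested genes differed between the tissues. 8875 of 16017 genes (55.4%) passed the quasi-likelihood test of edgeR at an adjusted p of 0.05. 4416 (27.6%) were higher in liver and 4459 (27.8%) higher in BAT. Against a bound of 2-fold, 4937 genes (30.8%) passed, 2627 (16.4%) higher in liver and 2310 (14.4%) higher in BAT. The 4 liver values lay wholly above or below the 4 BAT values in 8634 genes (53.9%). The median log2 difference over all genes tested was -0.025. In liver, 292 tested genes had 0 counts in each library, and in BAT 232 did. For such genes a fold is given as a lower bound, against a floor of 3 counts per library (on average 0.101 CPM in liver and 0.0997 CPM in BAT).

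**Figure D1:**
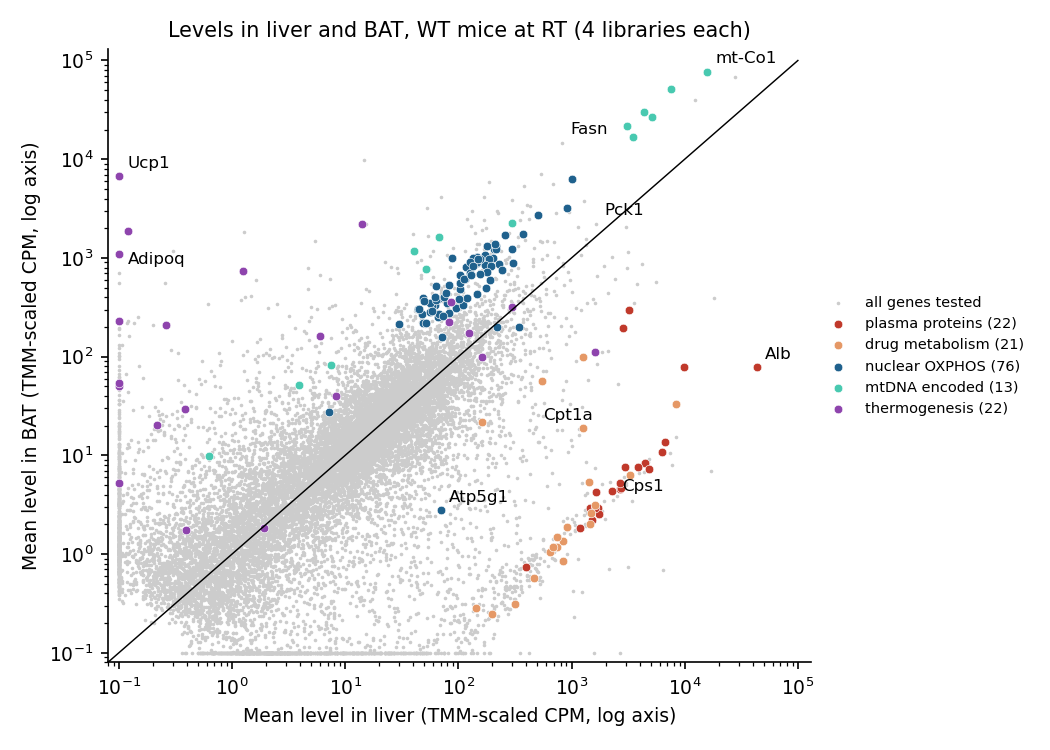
Mean level of each tested gene in liver (x axis) and BAT (y axis), in CPM on log axes, with 5 gene groups coloured and genes at 0 drawn at the 3-count floor. Plasma protein genes lie far below the diagonal, thermogenesis genes mostly far above it, and respiratory chain genes in a band a few-fold above it.

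Liver stood apart by its secretory and detoxifying genes. All 22 plasma protein genes on the list were higher in liver, with a median log2 difference of 9.03. Apoe, which carries lipoprotein lipid and is not on that list, was among the most abundant genes higher in liver (18190 ± 5081 CPM in liver and 396 ± 141 CPM in BAT, SD, n = 4). So was Trf, the iron carrier transferrin (9899 ± 1290 CPM in liver and 79.0 ± 58.2 CPM in BAT). Apoa2, of high density lipoprotein, was at 6742 ± 1028 CPM in liver and 13.5 ± 13.1 CPM in BAT. Rbp4, the retinol carrier, and C3, of complement, showed the smallest differences of the list, at 3.88 (SE 0.33) and 3.44 (SE 0.33), and had 195 and 299 CPM in BAT, far over the hepatocyte background. The 8 genes of the urea cycle, which turns ammonia into urea, were higher in liver with a median log2 difference of 8.68. Cps1, its entry enzyme, stood at 1568, 3292, 2417 and 2118 CPM in liver and 2.54, 9.27, 2.31 and 0.130 CPM in BAT. The 15 genes of bile acid synthesis and transport (median 8.87) and the 21 of drug metabolism (median 9.02) were likewise all higher in liver. Cyp7a1, the rate-limiting enzyme of bile acid synthesis, was at 115 ± 57.3 CPM in liver and 0.178 ± 0.140 CPM in BAT, and Cyp2e1, which oxidises ethanol, at 8381 ± 1469 CPM in liver and 33.1 ± 31.5 CPM in BAT. Cyp27a1, which starts the other route to bile acids, was at 49.3 ± 8.64 CPM in BAT and 442 ± 30.5 CPM in liver (log2 difference 3.16, SE 0.18, adjusted p = 6.59e-08). In 59 of the 66 members of these 4 lists the highest BAT library was replicate 15, the one with the most hepatocyte transcripts. Several hepatocyte markers, among them Alb, Fgb, Cps1 and Cyp2e1, are themselves members, so this overlap is partly built in. The share over all genes was not counted.

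The major urinary proteins, pheromone carriers made by the male liver, gave many of the largest differences. Mup3 was at 8319 ± 1628 CPM in liver and 15.3 ± 15.7 CPM in BAT, Mup7 at 7659 ± 4273 CPM in liver and 7.98 ± 8.15 CPM in BAT, Mup12 at 6431 ± 1922 CPM in liver and 0.688 ± 0.821 CPM in BAT and Mup17 at 17180 ± 9150 CPM in liver and 7.03 ± 6.25 CPM in BAT. Mup10, Mup19, Mup8 and Mup13 were among the 6 largest differences above 10 CPM, each with few counts in BAT: 2, 6, 1 and 2 over the 4 libraries. Mup19 ranged widely among livers, at 209.6, 92.0, 424 and 9967 CPM. Without BAT replicates 12 and 15, Mup19 and Mup8 were not called (adjusted p = 0.102 and 0.114 by edgeR). These genes are near-identical copies, so how reads were split among them is uncertain. Serpina3k, a serine protease inhibitor of plasma, stood at 7409 ± 1802 CPM in liver and 10.6 ± 10.3 CPM in BAT. Slc22a7, an organic anion transporter of hepatocytes, had 40.9 ± 17.0 CPM in liver and 0 counts in BAT, at least 410.1-fold higher in liver.

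BAT stood apart by its thermogenic genes. Of 22 on the list, 17 were higher in BAT, 2 higher in liver and 3 passed in neither direction. Ucp1 was at least 66430-fold higher in BAT. Cidea, a lipid droplet protein of brown fat, stood at 18.1, 4.44, 6.41 and 26.9 CPM in liver and 1466, 2568, 2614 and 2210 CPM in BAT (log2 difference -7.31, SE 0.66, adjusted p = 5.15e-06). Dio2, which makes active thyroid hormone inside the cell, was at 0 in liver and 62.3, 40.8, 60.0 and 39.4 CPM in BAT, at least 502-fold higher. Otop1, a proton channel, was at least 2285-fold higher in BAT, and Ebf2, a transcription factor of brown fat identity, at least 535-fold. Cox8b, a muscle and brown fat form of a cytochrome oxidase subunit, had 18 counts over the 4 livers and 979, 2423, 2357 and 1717 CPM in BAT. Replicate 12 was the lowest of the BAT libraries for Ucp1, Cidea and Cox8b. Ppargc1a, a coactivator that raises mitochondrial gene expression, was at 8.26 ± 2.62 CPM in liver and 40.1 ± 10.4 CPM in BAT (log2 difference -2.28, SE 0.25, adjusted p = 1.27e-05). The members higher in liver were Ppara, a receptor for fatty acids, at 162 ± 46.0 CPM in liver and 100.2 ± 21.3 CPM in BAT (log2 difference 0.69, SE 0.22, adjusted p = 0.0195), and Slc27a2, a fatty acid transporter and acyl-CoA synthetase, at 1614 ± 246 CPM in liver and 112 ± 45.5 CPM in BAT. The call of Ppara was lost without BAT replicate 17 (log2 0.54), without liver replicate 18 (0.49), under upper quartile scaling (0.52) and with all 48 libraries in the fit (0.65). Gk, glycerol kinase, was not called, at 123 ± 9.78 CPM in liver and 172 ± 107 CPM in BAT.

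**Figure D2:**
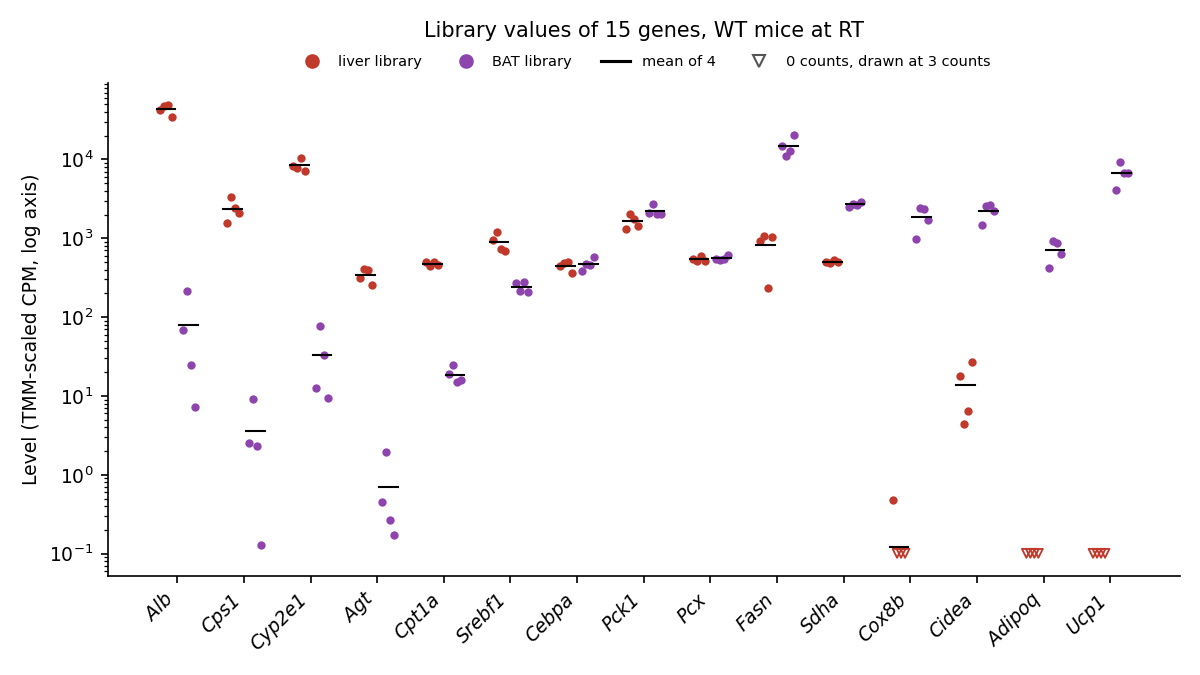
CPM of 15 genes in each of the 8 libraries on a log axis, liver and BAT side by side, with a black bar at the mean and a triangle at the 3-count floor for a library with 0 counts. Alb and Cps1 are far higher in each liver than in BAT, Ucp1 and Adipoq have 0 counts in each liver, and Pck1, Pcx and Cebpa overlap or nearly so.

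The respiratory chain was higher in BAT almost throughout. Of 76 nuclear genes for its subunits, 73 were higher in BAT, 2 higher in liver and 1 was not called, with a median log2 difference of -2.41. 72 of the 73 passed against the 2-fold bound. Sdha, of complex II, whose promoter is shown above, was at 506 ± 13.5 CPM in liver and 2695 ± 147 CPM in BAT (log2 difference -2.41, SE 0.19, adjusted p = 6.39e-07). Cycs, cytochrome c, was at 87.5 ± 5.33 CPM in liver and 993 ± 178 CPM in BAT (-3.50 (SE 0.20) on the log2 scale), and Atp5b, of ATP synthase, stood at 1001 ± 25.7 CPM in liver and 6275 ± 547 CPM in BAT. The exceptions were all of ATP synthase. Atp5g1, which encodes its c subunit, was higher in liver, at 70.9, 79.1, 80.7 and 49.7 CPM against 0.800, 6.88, 1.25 and 2.25 CPM in BAT (log2 difference 4.63, SE 0.62, adjusted p = 0.000151). Atp5g3, which encodes the same mature protein, was at 344 ± 23.0 CPM in liver and 198 ± 19.2 CPM in BAT, and Atp5g2, the other gene for it, went the other way, at 71.3 ± 11.3 CPM in liver and 158 ± 30.3 CPM in BAT (-1.14 (SE 0.18)). Atp5j, of the stalk, was not called, at 220.3 ± 25.9 CPM in liver and 201 ± 24.9 CPM in BAT. Reads shared with near-identical copies could be missing from or misplaced among the Atp5g genes.

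The mitochondrial genome gave a far larger share of the counts in BAT than in liver. Its 13 protein genes took 19.3% to 24.2% of all counts in BAT and 3.57% to 4.77% in liver, and all 13 were higher in BAT, with a median log2 difference of -2.92. mt-Co1, the catalytic subunit of cytochrome oxidase, stood at 14310, 17420, 12070 and 19550 CPM in liver and 63100, 88630, 83800 and 72570 CPM in BAT (log2 difference -2.28, SE 0.26, adjusted p = 1.62e-05). Replicate 12 was the lowest of the BAT libraries, and no liver value reached it. The ribosomal RNA genes mt-Rnr1 and mt-Rnr2 and Lars2, the mitochondrial leucyl-tRNA synthetase, were among the most abundant genes higher in BAT, at 3853 ± 1785, 5367 ± 2438 and 5606 ± 3376 CPM. In liver they stood at 300.7 ± 102.8, 377.5 ± 157.1 and 685.4 ± 640.5 CPM. The Lars2 groups overlapped, with liver replicate 18 at 1617 CPM and BAT replicate 12 at 1052 CPM. Copies of mitochondrial sequence in the nuclear genome make the split of reads uncertain for these genes.

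The tricarboxylic acid cycle and pyruvate dehydrogenase, which feed the chain, were higher in BAT as well. 16 of 17 genes were higher in BAT, with a median log2 difference of -3.22. Idh3a, of the rate-limiting isocitrate dehydrogenase, showed the largest difference on the list, at 39.7 ± 5.94 CPM in liver and 1748 ± 268 CPM in BAT (-5.46 (SE 0.24)), and Cs, citrate synthase, stood at 129 ± 21.0 CPM in liver and 2126 ± 61.6 CPM in BAT. The exception was Suclg2, the subunit that makes succinyl-CoA synthetase form GTP, higher in liver at 305 ± 29.5 CPM in liver and 172 ± 17.1 CPM in BAT (log2 difference 0.83, SE 0.15, adjusted p = 0.000634). The alternative subunit Sucla2, which makes the enzyme form ATP, was higher in BAT, at 161 ± 3.25 CPM in liver and 1909 ± 231 CPM in BAT.

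Fatty acid oxidation divided by organelle. Of 19 mitochondrial genes, 17 were higher in BAT, with a median log2 difference of -2.09. Hadhb, of the trifunctional protein that cuts long chains, was at 170.2 ± 15.5 CPM in liver and 4121 ± 781 CPM in BAT (log2 difference -4.60, SE 0.25, adjusted p = 4.58e-08), and Acadl, a long-chain dehydrogenase, at 224 ± 40.2 CPM in liver and 2823 ± 391 CPM in BAT. The gene higher in liver was Cpt1a, which controls the entry of long-chain fatty acids, at 494, 444, 495 and 452 CPM in liver and 18.9, 24.9, 15.0 and 16.0 CPM in BAT (log2 difference 4.66, SE 0.21, adjusted p = 1.75e-08). The muscle and brown fat form Cpt1b was at 0.134 ± 0.216 CPM in liver and 6.58 ± 2.71 CPM in BAT. Eci2 was not called. Of 18 peroxisomal genes, 14 were higher in liver and 1 in BAT, with a median of 1.66. Acaa1b, a thiolase of the peroxisome, stood at 2552 ± 359.7 CPM in liver and 52.8 ± 14.9 CPM in BAT. The gene higher in BAT was Abcd2, a peroxisomal importer, at 10.8 ± 2.76 CPM in liver and 132 ± 48.2 CPM in BAT (log2 difference -3.61, SE 0.29, adjusted p = 1.14e-06).

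Ketone bodies are made in liver and burned elsewhere, and the genes followed that division. Bdh1, which interconverts the ketone bodies, was at 239.6 ± 56.0 CPM in liver and 0.542 ± 0.563 CPM in BAT, near the hepatocyte background in BAT. Oxct1, which starts their use, was at 5.00 ± 1.34 CPM in liver and 251 ± 37.1 CPM in BAT (log2 difference -5.65, SE 0.25, adjusted p = 1.31e-08), and Slc16a1, a carrier for ketone bodies and lactate, at 33.2 ± 5.90 CPM in liver and 309 ± 66.7 CPM in BAT. Over the lists, 3 of 4 synthesis genes were higher in liver and 4 of 5 genes of use were higher in BAT, with Acat1 and Bdh1 on both.

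Glucose was handled by other genes in each tissue. Of 12 gluconeogenesis genes, 8 were higher in liver, 2 higher in BAT and 2 not called, with a median of 2.73. G6pc, which releases free glucose, was at 405 ± 93.5 CPM in liver and 0.603 ± 0.701 CPM in BAT and Fbp1 at 768 ± 64.3 CPM in liver and 1.56 ± 1.71 CPM in BAT. The 2 in BAT fell to 1 without BAT replicates 12 and 15. The uncalled genes were the entry enzymes, of which Pck1 was called as higher in BAT under upper quartile scaling (log2 -0.62). Pck1 stood at 1319, 2041, 1747 and 1438 CPM in liver and 2100, 2713, 2029 and 2054 CPM in BAT (log2 difference -0.44, SE 0.22, adjusted p = 0.107), with a 95% interval of -0.92 to 0.03. Pcx, pyruvate carboxylase, stood at 543 ± 38.3 CPM in liver and 559 ± 33.4 CPM in BAT, with an interval of -0.40 to 0.31. Of 20 tested glycolysis genes, 15 were higher in BAT, 4 higher in liver and 1 not called, with a median of -2.20. Pklr and Aldoc were among those higher in liver. Eno3 was not called.

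Many enzyme steps were carried by a different gene in each tissue. In 26 pairs of related genes, 17 had the liver form higher in liver and the fat form higher in BAT. In 17, the liver form was the more abundant of the pair per length in liver and the fat form in BAT, and 15 met both criteria. Shares are of the pair's summed RPKM, CPM per kilobase of exon. Liver pyruvate kinase, Pklr, made up 97.2% of its pair with Pkm in liver and 0.0493% in BAT. The cytosolic fatty acid carrier Fabp1 was at 7851 ± 1113 RPKM in liver and Fabp4 at 2178 ± 461 RPKM in BAT, and the share of Fabp1 fell from 100% to 0.564%. For the glucose transporters Slc2a2 and Slc2a4, the share of Slc2a2 was 99.1% in liver and 0.161% in BAT. For the glycerol channels Aqp9 and Aqp7 it was 100% and 0.358% for Aqp9, with Aqp7 at 0 in liver. Several steps shared their form. Cox4i1 made up nearly the whole of its pair in both tissues (100% and 99.7%), and so did Cox6a1 (100% and 99.8%). The other cytochrome oxidase pairs changed: Cox7a2 made up 98.1% of its pair with Cox7a1 in liver and 32.4% in BAT, and Cox8a 99.9% and 23.4% of its pair with Cox8b. Both forms of these were higher in BAT. Cpt1a, at 55.6% of its pair with Cpt1b in BAT per length, was not displaced there. Phosphofructokinase ran against the pair's liver and fat forms: Pfkl made up 48.3% of its pair with Pfkm in liver and 80.2% in BAT.

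**Figure D3:**
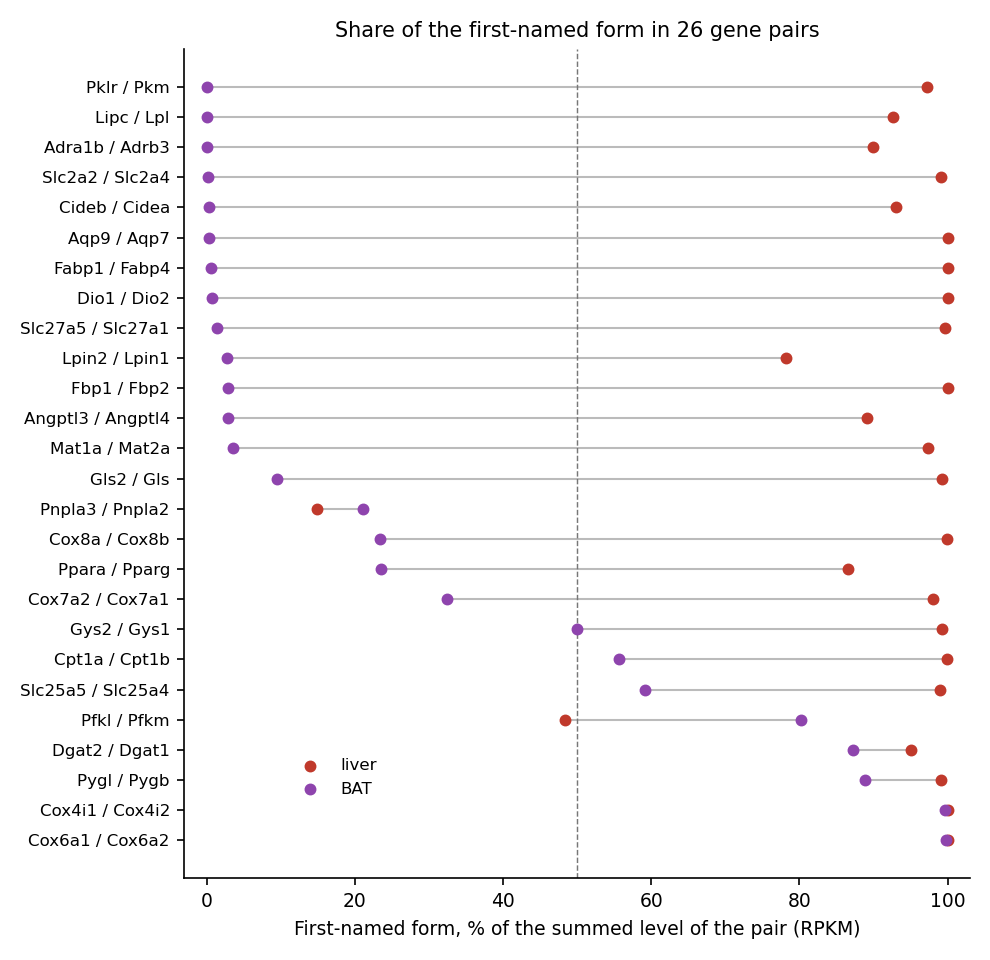
Share of the first-named gene in the summed RPKM of each of 26 pairs, in liver and in BAT, in percent, with a dashed line at 50%. Most pairs run from a high share in liver to under 10% in BAT, while Cox4i1, Cox6a1, Pygl and Dgat2 are among those above 50% in both.

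Fatty acid synthesis was higher in BAT than in liver, although the genes of its regulators were higher in liver. Of 13 genes, 11 were higher in BAT and 2 in liver, with a median of -2.41. Fasn, fatty acid synthase, stood at 926, 1069, 237 and 1049 CPM in liver and 14660, 11010, 12950 and 20430 CPM in BAT (log2 difference -4.17, SE 0.47, adjusted p = 1.44e-05). The groups lay far apart, and liver replicate 15 was the lowest liver. Acly, which supplies cytosolic acetyl-CoA, was at 219.5 ± 109 CPM in liver and 3007 ± 1329 CPM in BAT, and Acaca, which makes malonyl-CoA, at 119.5 ± 46.5 CPM in liver and 2460 ± 634 CPM in BAT. Scd1, which desaturates stearate, was abundant in both, at 27750 ± 7514 CPM in liver and 67910 ± 9146 CPM in BAT (log2 difference -1.29, SE 0.27, adjusted p = 0.00142). Scd2, the form of other tissues, was at 7.29 ± 0.926 CPM in liver and 607 ± 243 CPM in BAT. The genes higher in liver were the transcription factors Srebf1, which answers to insulin, at 939, 1201, 729.9 and 684 CPM in liver and 274, 212, 282 and 208 CPM in BAT (log2 difference 1.87, SE 0.23, adjusted p = 2.98e-05), and Mlxipl, which answers to glucose, at 473 ± 162 CPM in liver and 197 ± 71.1 CPM in BAT (log2 difference 1.26, SE 0.31, adjusted p = 0.00424).

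Most genes of fat storage and release were higher in BAT, and those of uptake fell on both sides. Of 18 genes of triglyceride synthesis and storage, 14 were higher in BAT, 3 higher in liver (Lpin2, Cideb and Fitm1) and 1 not called. Gpd1, which makes glycerol phosphate, was at 538 ± 89.2 CPM in liver and 7110 ± 1136 CPM in BAT, and Plin1, the droplet coat of adipocytes, had 12 counts over the 4 livers and 1072 ± 71.7 CPM in BAT. Of 9 genes of lipolysis, 8 were higher in BAT, among them Pnpla2, the first lipase, at 53.8 ± 15.7 CPM in liver and 1663 ± 62.9 CPM in BAT and Lipe, the next, at 22.3 ± 6.74 CPM in liver and 899.6 ± 156 CPM in BAT. The one higher in liver was hepatic lipase, Lipc. Lpl, which frees fatty acids from lipoproteins in capillaries, was at 52.5 ± 17.9 CPM in liver and 3241 ± 1053 CPM in BAT (-5.95 (SE 0.39)). Of 14 uptake and activation genes, 6 were higher in liver, 7 higher in BAT and 1 not called. The latter was Acsl5, at 393 ± 98.8 CPM in liver and 521 ± 34.3 CPM in BAT, which was called as higher in BAT without liver replicate 18 (log2 -0.57), under upper quartile scaling (-0.58) and with all 48 libraries (-0.45). Fabp4 was at 14.6 ± 5.32 CPM in liver and 9778 ± 2068 CPM in BAT and Cd36, a fatty acid receptor, at 139.9 ± 33.6 CPM in liver and 1810 ± 356 CPM in BAT, both higher in BAT.

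Cholesterol synthesis genes fell on both sides. Of 21 genes, 7 were higher in liver, 9 higher in BAT and 5 not called, with a median of 0.12. Hmgcs1, an early enzyme of the pathway, was at 92.2 ± 9.55 CPM in liver and 298 ± 56.9 CPM in BAT (log2 difference -1.69, SE 0.17, adjusted p = 6.88e-06). Sqle, squalene epoxidase, stood at 0.639, 0, 0.0572 and 3.49 CPM in liver and 22.9, 15.4, 21.6 and 24.4 CPM in BAT, with liver replicate 18 the highest liver.

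**Figure D4:**
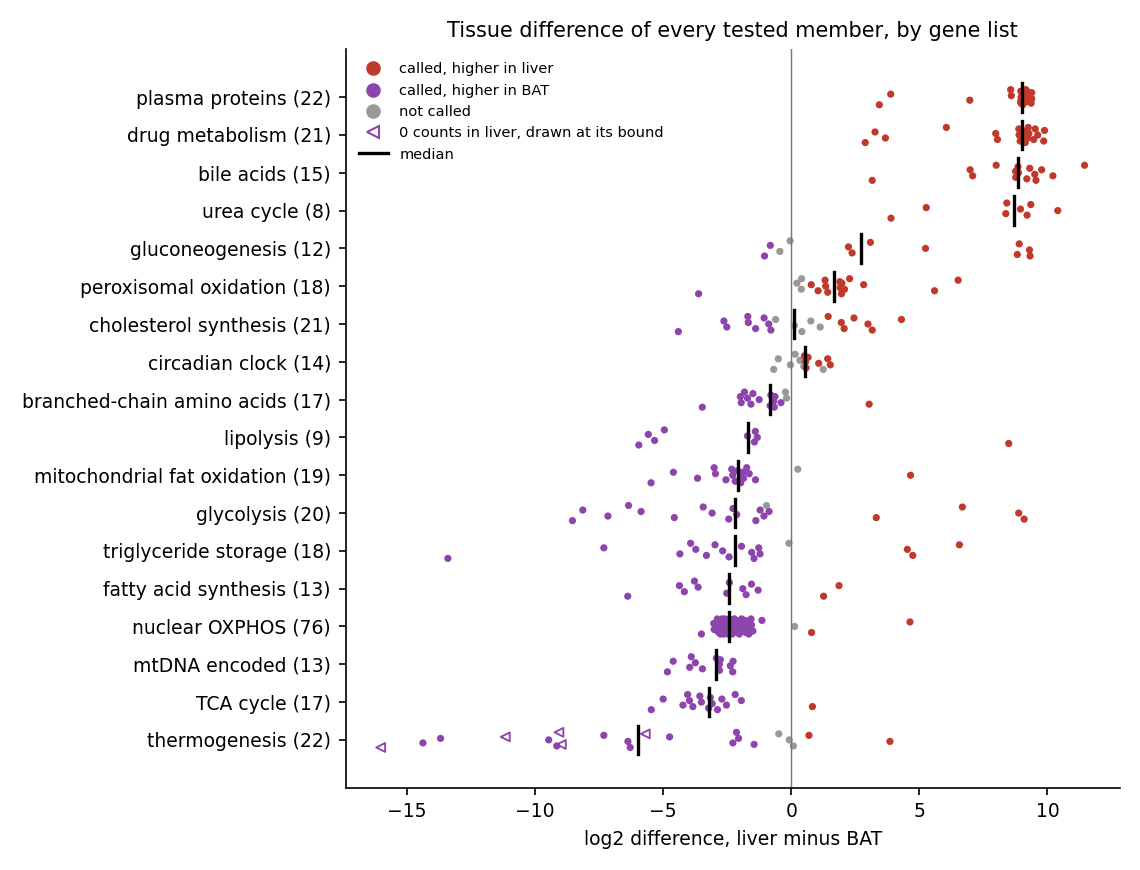
Log2 difference, liver minus BAT, of every tested member of 18 gene groups (points), with a black bar at each group's median and open triangles at the lower bound for genes with 0 counts in liver. Bile acid, drug, urea and plasma protein genes centre near 9, respiratory chain and tricarboxylic acid cycle genes near -2 to -3, and cholesterol synthesis near 0.

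The transcription factors that define each cell type differed as their tissues did. Of 25, 13 were higher in liver, 10 higher in BAT and 2 not called. Hnf4a, a central regulator of hepatocyte genes, was at 428 ± 94.2 CPM in liver and 0.603 ± 0.749 CPM in BAT and Prox1 at 106 ± 19.0 CPM in liver and 0.128 ± 0.150 CPM in BAT. Pparg, the regulator of fat cells, was at 19.3 ± 4.83 CPM in liver and 252 ± 34.2 CPM in BAT (log2 difference -3.70, SE 0.21, adjusted p = 7.11e-08), Esrra, which drives mitochondrial genes, at 34.0 ± 9.80 CPM in liver and 120.2 ± 3.25 CPM in BAT (log2 difference -1.82, SE 0.19, adjusted p = 6.94e-06), and Prdm16, a brown fat regulator, at 0.219 ± 0.264 CPM in liver and 20.6 ± 5.89 CPM in BAT. Cebpa, used in both cell types, was not called and stood at 444, 491, 494 and 358 CPM in liver and 388, 467, 465 and 579 CPM in BAT, with a 95% interval of -0.50 to 0.33 for the log2 difference. Cebpb was also not called. Of 7 tested adrenergic receptors, 5 were higher in BAT and 2 in liver. Adrb3, the main receptor for noradrenaline in fat, was at 6.01 ± 4.39 CPM in liver and 161 ± 20.3 CPM in BAT, Adra1a at 5.20 ± 0.904 CPM in liver and 55.4 ± 4.83 CPM in BAT, and Adra1b, a receptor of hepatocytes, at 53.6 ± 9.40 CPM in liver and 0.135 ± 0.179 CPM in BAT.

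Secreted factors fell on both sides. Of 12 adipokine genes, 9 were higher in BAT, Rarres2 (chemerin) was higher in liver, and 2 were not called. Adipoq, adiponectin, was at 0 in liver and 425, 922, 858 and 633 CPM in BAT, at least 7032-fold higher, and Lep, leptin, was at least 1001-fold higher in BAT. Lgals12, a lectin of fat droplets, was at least 1069-fold higher. Of 14 liver hormone genes, 11 were higher in liver, Angptl4 was higher in BAT and 2 were not called. Igf1 was at 399 ± 85.7 CPM in liver and 8.90 ± 3.94 CPM in BAT and Selenop, the selenium carrier, at 5555 ± 482 CPM in liver and 568 ± 121 CPM in BAT.

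The source of the angiotensin system stood in liver, and its other genes fell on both sides. Agt stood at 311, 405, 397 and 256 CPM in liver and 0.457, 1.93, 0.264 and 0.173 CPM in BAT (log2 difference 8.85, SE 0.71, adjusted p = 4.38e-06). The BAT values were ordered as the hepatocyte marker sums were, highest in replicate 15 and lowest in replicate 18. Of 8 tested genes of the system, 3 were higher in liver (Agt, the receptor Agtr1a and the peptidase Enpep) and 3 higher in BAT (the converting enzyme Ace, and Mme and Lnpep, which cut angiotensins). Agtr1a was at 32.8 ± 5.22 CPM in liver and 3.77 ± 1.85 CPM in BAT and Ace at 0.681 ± 0.465 CPM in liver and 7.18 ± 2.15 CPM in BAT. Renin, Ren1, had 0 counts in each of the 8 libraries.

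Smaller groups completed the picture. Of 17 tested genes of branched-chain amino acid breakdown, 14 were higher in BAT, 1 in liver and 2 not called (median -0.82). The one higher in liver was Ppm1k, the phosphatase that activates the pathway, at 117 ± 22.9 CPM in liver and 14.2 ± 2.61 CPM in BAT, while Bckdk, the kinase that inhibits it, was at 13.4 ± 2.18 CPM in liver and 148 ± 26.9 CPM in BAT. Of 21 mitochondrial carriers, 8 were higher in liver, 11 higher in BAT and 2 not called. Of 5 tested genes of the creatine cycle, Gatm and Gamt, which make creatine, were higher in liver, and Slc6a8 and Ckb, which import and use it, higher in BAT. Of 7 tested calcium cycling genes, 5 were higher in BAT, among them Ryr2, at least 107-fold higher, and Atp2a1, a calcium pump of skeletal muscle, whose BAT values of 0.914, 33.6, 5.86 and 0.777 CPM followed the muscle marker sums. Of 14 tested clock genes, 7 were higher in liver, 0 in BAT and 7 not called (median 0.54), where 55.4% of all genes tested were called. The 7 fell to 4 without BAT replicate 18, liver replicate 11 or liver replicate 15, and to 3 under upper quartile scaling or with all 48 libraries. 1 clock gene was higher in BAT under these 2 settings, without a filter, and without liver replicate 12 or 18. Per2, a core clock gene, was at 42.9 ± 9.46 CPM in liver and 14.9 ± 8.40 CPM in BAT (log2 difference 1.53, SE 0.39, adjusted p = 0.00683). Arntl, another, stood at 2.21, 4.40, 2.06 and 0.852 CPM in liver and 12.2, 0.626, 0.329 and 2.16 CPM in BAT, where replicate 12 stood apart. Without it the log2 difference went from -0.68 to 1.20, neither called. The labels give no hour of collection.

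Markers of other cell types fell on both sides. Of 10 macrophage markers, 9 were higher in liver, led by the Kupffer cell genes Clec4f (104 ± 10.2 CPM in liver and 0.104 ± 0.0988 CPM in BAT) and Cd5l. Lyz2, common to macrophages, was not called. Of 10 endothelial markers, the sinusoid genes Stab2 and Clec4g were higher in liver, and 5, among them Pecam1 (15.3 ± 3.88 CPM in liver and 53.0 ± 16.9 CPM in BAT), were higher in BAT. Of 10 stellate cell and fibroblast markers, Lrat and Reln were higher in liver and 7 higher in BAT. Of 4 tested lymphocyte markers 2 were higher in liver, and of 4 tested bile duct markers Sox9 and Spp1 were. Over all genes tested 55.4% were called, 27.6% as higher in liver, so 2 of 4 says little about these cells. The lymphocyte count was 1 without BAT replicate 12 or 18 or liver replicate 12, and the bile duct count was 4 without BAT replicate 17. 3 of 5 tested nerve markers and all 4 tested muscle markers were higher in BAT. The muscle count was 2 without BAT replicate 12 or 15, 8 without BAT replicate 18 and 7 without liver replicate 11, 15 or 18. S100b, a marker of Schwann cells also made by fat cells, was at 193 ± 55.1 CPM in BAT and near 0 in liver.

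Some abundant genes were close in the tissues. 3097 genes were not called and had a 95% interval of the difference within 2-fold. The 8 most abundant of these were Pck1, Fth1, Cdo1, Glul, Ces1d, Hspa8, Tpt1 and Eef2. Ces1d, a carboxylesterase, was called as higher in BAT without liver replicate 15 (log2 -0.58) and under upper quartile scaling (-0.61), as was Pck1 under that scaling. Fth1, the ferritin heavy chain, was at 1356 ± 141 CPM in liver and 1556 ± 147 CPM in BAT (interval -0.61 to 0.21). Glul, glutamine synthetase, was at 1221 ± 254 CPM in liver and 1061 ± 127 CPM in BAT (interval -0.26 to 0.66), and Cdo1, which oxidises cysteine, at 1338 ± 309.5 CPM in liver and 1340 ± 163 CPM in BAT (interval -0.48 to 0.48). Eef2, which moves the ribosome along, was at 924 ± 205 CPM in liver and 719.6 ± 32.1 CPM in BAT (interval -0.07 to 0.79).

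The tissue difference at RT was then set against that at TN, in a fit over 16 wild-type libraries in which CPM are scaled over all 16. The difference changed with temperature (an interaction of tissue and temperature) in 1828 of 18325 genes (9.98%). It was more positive at RT in 744 (4.06%) and more negative in 1084 (5.92%). With plain library totals the split was 1935 more positive and 379 more negative, and the median interaction over all genes moved from 0.124 to 0.568. Directions of single genes below are therefore relative to the scaling used. The count rested on a few BAT libraries: it was 2843 without replicate 24, 1183 without replicate 6 and 1165 without replicate 7, all at TN. The positive count was 1335, 464 and 458 without these, and 1165, 473 and 472 without replicates 12, 17 and 18 at RT. The negative count was 719 and 707 without replicates 6 and 7. RT against TN called 4819 genes (26.3%) in BAT, 2238 higher at RT (12.2%) and 2581 higher at TN (14.1%). In liver it called 5 (0.0273%), 4 higher at RT (0.0218%) and 1 higher at TN (0.00546%). At TN, 9268 genes (50.6%) differed between the tissues. Of the 8871 genes called at RT and tested at TN, 6727 were called at TN too (75.8% of the RT calls and 78.0% of the 8623 TN calls among these genes), 6615 of them in the same direction.

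Fatty acid synthesis turned over with temperature. In 11 of 13 genes the difference was more negative at RT, and the median log2 difference went from -2.45 at RT to 0.72 at TN. At RT 2 genes were higher in liver and 11 in BAT, and at TN 8 (background 23.1%) and 1 (27.4%). Fasn was at 528, 895, 1302 and 4217 CPM in liver and 918, 549.8, 642 and 2781 CPM in BAT at TN, against 16500, 12120, 14240 and 22300 CPM in BAT at RT on the same scale. The TN values of the tissues overlapped (tissue difference 0.51 (SE 0.66)), and the interaction was -4.71, SE 0.98, adjusted p = 0.00833. Replicate 24 was the highest library in both tissues at TN. The interaction was -5.50 without BAT replicate 24 and -3.83 without liver replicate 24, called in both. Elovl6, which lengthens palmitate, went from -2.55 (SE 0.43) at RT to 1.92 (SE 0.42) at TN (interaction -4.47, SE 0.60, adjusted p = 0.000462). Elovl3, which makes very long chains in brown fat, was at 161, 318, 264 and 251 CPM in BAT at RT and 1.35, 0.261, 1.11 and 4.21 CPM at TN, while liver stayed between 65.6 and 123 CPM (interaction -7.02, SE 0.75, adjusted p = 0.000147). Acsl5, which activates fatty acids, was at 536, 566, 607 and 592 CPM in BAT at RT and 55.4, 56.7, 57.6 and 43.0 CPM at TN, and was higher in liver at TN (3.41 (SE 0.19), interaction -3.85, SE 0.26, adjusted p = 2.57e-07). Srebf1 showed no called interaction (-0.52, SE 0.31, adjusted p = 0.319).

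Oxidative genes shared the direction, with a smaller shift. Markers of other cells moved too: in BAT 6 of 10 endothelial and 7 of 10 stellate cell and fibroblast markers were higher at TN than at RT (medians of -1.31 and -1.32, RT minus TN). The brown adipocyte marker sum was 8286 to 17220 CPM at RT and 3042 to 6782 CPM at TN. Ucp1 made up a large part of that sum. Of the 8 brown adipocyte markers, 2 were called as higher at RT than at TN in BAT and 0 as lower. The part of cell types in the shift was not tested. The difference was more negative at RT in 59 of 76 nuclear respiratory chain genes (median -2.45 at RT and -1.34 at TN), in 14 of 17 of the tricarboxylic acid cycle and in 14 of 19 of mitochondrial fatty acid oxidation. None of these was more positive, but 1 respiratory chain gene was without BAT replicate 15 at RT. With plain library totals these counts were 19, 9 and 9, and the respiratory chain count was 37 and 35 without BAT replicates 6 and 7 at TN. They were 1, 3 and 3 with a block for replicate number, fitted to the libraries whose number occurs in both tissues. Of the 13 genes of the mitochondrial genome 2 were called, both more negative at RT, and 0 to 3 with 1 library left out. The count was 0 when BAT libraries 6 and 24 at TN, which held the most muscle transcripts, were both left out. Cholesterol synthesis showed 10 of 21 genes more negative at RT (median interaction -1.49), and 6 without BAT replicate 17 at RT or without BAT replicate 6 or 7 at TN. At TN, 14 of its genes were higher in liver and 0 in BAT. Glycolysis had 10 of 20 more negative at RT and peroxisomal oxidation 9 of 18, which was 3 with plain library totals. Urea cycle and drug metabolism genes had 0 called interactions, and the plasma protein list 1, Rbp4. Their median interactions were not near 0, at 1.24, 1.52 and 1.52, against 0.12 over all genes. In BAT their medians, RT minus TN, were -1.37, -1.42 and -1.51. The part of the hepatocyte background in these medians was not tested. Apoe, which is not on the plasma protein list, had a called positive interaction (1.70, SE 0.36, adjusted p = 0.00615). For Ucp1 and Dio2, at 0 in liver at both temperatures, an interaction cannot be estimated. Ucp1 was at 1788, 1253, 1270 and 4174 CPM in BAT at TN and 4604, 10210, 7453 and 7276 CPM at RT.

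**Figure D5:**
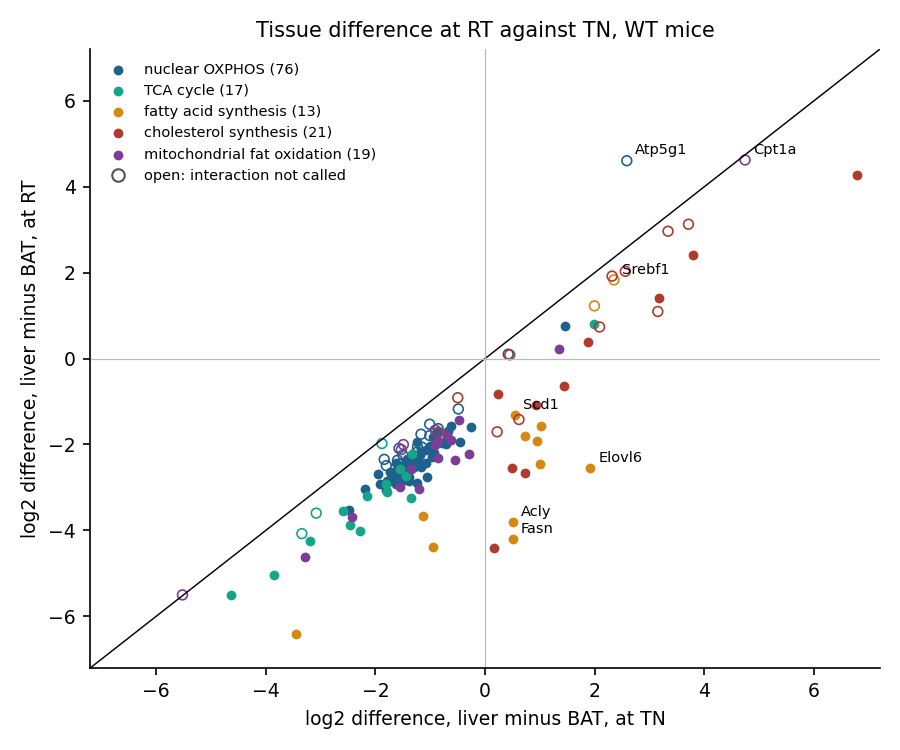
Log2 difference, liver minus BAT, at RT (y axis) against TN (x axis) for the genes of 5 groups, filled where the interaction of tissue and temperature passed and open where it did not. Most fatty acid synthesis genes sit well below the diagonal, with group medians of -2.45 at RT and 0.72 at TN.

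The genes with the largest positive interactions were mostly low in one group. Mup9 was at 224, 191, 25.8 and 374 CPM in liver at RT and 3.00, 0.626, 0.527 and 1.70 CPM at TN (interaction 8.08, SE 1.84, adjusted p = 0.0147). Synpo2l, of striated muscle, was at 6.41 and 6.80 CPM in BAT replicates 6 and 24 at TN, and at 0.693 CPM or below in the other BAT libraries. Xirp1, also of striated muscle, was at 20.4 and 15.9 CPM in these 2 libraries and at 0.313 CPM or below in the other BAT libraries. The muscle marker sums of replicates 6 and 24 were 4040 and 4768 CPM, against 15.9 and 10.8 CPM in replicates 1 and 7 at TN. Without these libraries neither was called, and leaving out a single library ended the call in 10 of 16 cases for Synpo2l and in 11 for Xirp1. Without BAT replicate 6 or 7 at TN, Mup9 was not called. Cd109 and Lvrn, at 0 in liver at TN, and Themis, at 0 in BAT at RT, have no measure of size. Cd109 was lost without liver replicate 15 at RT, and Lvrn in 10 of 16 cases. 6 of 10 macrophage markers had a positive interaction, with macrophage marker sums in BAT of 39.3 to 123 CPM at RT and 190 to 326 CPM at TN. The part of these cells in the other results was not tested. On the negative side, Sorcs2, Slc2a12, Ybx2 and Aqp7 had 0 counts in liver at RT, so their fitted values are no measure of size. Sorcs2 was lost in 9 of 16 cases and Ybx2 without liver replicate 6 at TN. Slc15a5, a transporter of the peptide carrier family, was at 0.996, 5.76, 1.74 and 10.5 CPM in BAT at RT and 0.0693, 0, 0 and 0.0570 CPM at TN (interaction -6.94, SE 1.08, adjusted p = 0.00108). In liver it ranged from 6.96 to 20.3 CPM at RT and from 7.31 to 11.4 CPM at TN.

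In the main fit, few tissue differences were called as different between hepAGT-/- and hepAGT+/+ mice, and their count depended on the settings. The targeted gene, Agt, was at 168, 194, 144 and 137 CPM in hepAGT-/- liver and 321, 415, 408 and 263 CPM in hepAGT+/+ liver on the scale of that fit. The groups did not overlap, and Agt was not at 0 in the hepAGT-/- livers. An interaction of tissue and genotype at RT was called in 2 of 18132 genes (0.011%), 1 in each direction (0.00552% each). Cntnap1, a cell adhesion gene, was at 7.57 ± 1.45 and 32.3 ± 8.61 CPM in hepAGT+/+ liver and BAT and at 1.88 ± 0.676 and 53.4 ± 2.65 CPM in hepAGT-/- (interaction 2.73, SE 0.33, adjusted p = 0.00323). Sucnr1, the succinate receptor, was at 39.8 ± 8.51 and 5.89 ± 0.997 CPM against 59.3 ± 5.13 and 2.52 ± 0.469 CPM (interaction -1.80, SE 0.25, adjusted p = 0.00839). The count of 2 was 543 without hepAGT+/+ BAT replicate 12 and 294 with DESeq2 on all 16 libraries. It was 16 without a filter, and 45 without the 2 hepAGT-/- BAT libraries with most muscle transcripts. With a replicate block it was 0. In hepAGT-/- mice 9890 genes (54.5%) differed between the tissues, 4861 higher in liver (26.8%) and 5029 higher in BAT (27.7%). Of the 8875 genes called in hepAGT+/+, 7598 were also called in hepAGT-/- (85.6%, and 82.3% of the 9231 called there among these genes), 7597 in the same direction.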

How the data were processed

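The authors deposited raw counts of reads per gene, 1 table per library, with no normalization. Per the submitters' processing notes, fastp, STAR 2.6.1d and featureCounts 1.5.0-p3 were used and the builds were GRCm38 and mm10. Per the labels' protocols, RNA came from snap-frozen tissue (Maxwell RSC simplyRNA), libraries from NEBNext Ultra kits, and reads were paired-end on an Illumina NovaSeq. Strand and annotation settings are not given in the sources used here. Symbols matched 52073 of 56748 gene IDs (91.8%), which held at least 94.8% of the counts of each library, and exon lengths came from the reference annotation. Since some IDs are newer than that build's annotation, no coordinates are given for counted genes.

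Libraries were grouped by their labels. Counts were scaled by TMM, genes were kept by filterByExpr (minimum count 10), and the quasi-likelihood F test of edgeR 4.0.16 (R 4.3.3, limma 3.58.1) was two-sided, robust, and with p-values adjusted by Benjamini-Hochberg across every gene in the fit and called at 0.05. A test against a 2-fold bound used glmTreat. The RT comparison used the 8 libraries, and each interaction 16. Intervals are 95%. RPKM served only to compare genes, and genes at 0 were set against a floor of 3 counts per library. Figures used matplotlib 3.10.9. That floor was 0.0798 to 0.129 CPM in the 8 libraries. Replicates are labelled as biological, and whether each is a separate mouse is not stated, so p-values measure the spread between these libraries.

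Named genes are the 10 most abundant per direction with a log2 difference of at least 3 and past the 2-fold bound, the 6 with the largest difference above 10 CPM, the 8 most abundant uncalled genes with an interval within 2-fold, the 6 (temperature) and 4 (genotype) largest called interactions per direction with a mean of at least 1 CPM, leaving out Gm and Rik symbols, and members of the gene lists and pairs. The members and lists were chosen with earlier results of these data known. Some genes named by this rule, and the pairs that hold them, are not reported here. Alternatives were other scalings, filters and samples, DESeq2 1.42.0, single libraries left out and a replicate block. In simulated data with 15808 genes for the RT comparison, 76% of 2-fold and 100% of 4-fold changes were recovered with 4 false calls. There, 100 genes were changed at each size, every gene had the same dispersion, and the tissues did not differ otherwise. The real data are not of that kind, so these rates need not hold for them.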

Additional observations from a re-analysis of the deposited data

Results flagged for a closer look

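Among the named genes, 284 groups of 4 libraries with a value of at least 1 CPM were checked for a library far from the other 3, and 20 had one. Chance gives about 1 in 20 for independent checks. These checks share the same libraries, so the count cannot be read directly against that rate. In BAT, replicate 15 was the highest for Pck1 (2713 CPM), Eno3 (24.2), Lpin2 (21.0), Agt (1.93), Ckb (19.3) and Atp2a1 (33.6). This is also the library with the highest sums of hepatocyte and muscle markers, 426 and 467 CPM, and their part in these values was not tested. BAT replicate 12 was the highest for Ebf2 (66.3 CPM) and Arntl (12.2) and the lowest for Glul (873). BAT replicate 17 was the lowest for Ppara (68.6 CPM) and the highest for Lgals12 (118). BAT replicate 18 was the highest for Pcx (609 CPM) and Elovl6 (1422). Among livers, replicate 18 was the highest for Mup19 (9967 CPM) and Lpin2 (535) and the lowest for Acadl (164). Liver replicate 12 was the highest for Sox9 (7.26 CPM), replicate 11 the lowest for Igf1 (271) and the highest for Spp1 (55.3), and replicate 15 the highest for Mup10 (2372).

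The tissue difference depended on housing temperature by the test of the interaction in 1828 genes. Among those with counts in each group, the interaction was -4.71 for Fasn, -4.47 for Elovl6, -7.02 for Elovl3, -3.85 for Acsl5, -2.13 for Rbp4, -6.94 for Slc15a5, 8.08 for Mup9 and 7.11 for Xirp1, on the log2 scale. For Aqp7 (-6.47), Sorcs2 (-7.97), Slc2a12 (-7.07), Ybx2 (-6.82), Cd109 (7.97), Lvrn (7.74), Synpo2l (9.09) and Themis (7.00) a group had 0 counts, so the fitted value is not a size. The tissue difference was called as dependent on genotype in 2 genes in the main fit, Cntnap1 (2.73) and Sucnr1 (-1.80).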

How the results depend on the processing

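In the RT comparison, with other scalings, filters, DESeq2, all 48 libraries or a library left out, 8244 to 11677 genes were called (8875 here) and 4312 to 6512 past 2-fold. Upper quartile scaling moved the median log2 difference of all genes from -0.025 to -0.200. The balance of directions depended on this: 3863 genes were then higher in liver and 5149 in BAT, and past 2-fold 2427 and 2655, against 2627 and 2310 here. With all 48 libraries the latter were 3168 and 3344. Genes that were not called changed sign, with values near 0: under plain totals Pcx 0.055, Cebpa 0.028, Cdo1 0.11 and Hspa8 0.065. Under upper quartile scaling Atp5j was -0.041 and Tpt1 -0.17. Tpt1 was -0.034 without a filter and -0.038 with all 48 libraries, and Cdo1 0.025 with RLE scaling, 0.0088 with a 1 CPM filter and 0.025 with DESeq2. With single libraries left out, Cebpa ran from -0.18 to 0.013, Arntl from -1.16 to 1.20, Cdo1 from -0.14 to 0.11, Hspa8 from -0.24 to 0.14 and Tpt1 from -0.12 to 0.067. 3 alternatives were chosen after seeing the data. Without BAT libraries 12 and 15, 7962 genes were called, Eno3 was 0.060, Arntl 0.93 and Tpt1 -0.11. The temperature interaction was then called in 2225 genes, 1135 of them positive. Without the 2 BAT libraries at TN with most muscle transcripts it was called in 2087.

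The temperature interaction called 2758 genes with DESeq2 (1289 positive), and under plain totals 1935 positive and 379 negative. With single libraries left out it called 1165 to 2843 (458 to 1335 positive, 707 to 1508 negative). The genotype interaction called 16 without a filter (13 positive, 3 negative) and 294 with DESeq2 (210 and 84). With single libraries left out it called 2 to 543 (1 to 291 positive, 1 to 252 negative), and 45 without the 2 hepAGT-/- BAT libraries with most muscle transcripts (38 and 7). The cause of these shifts was not tested. At these depths the simulated data recovered 26% of 2-fold temperature interactions and 24% of 2-fold genotype interactions. Every simulated gene had the same dispersion, so these rates need not hold for the real data.

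Deviations from the tissue means correlated at 0.04, 0.04 and -0.03 between same-numbered liver and BAT libraries. Libraries with different numbers ran from -0.17 to 0.10. Whether such a correlation would show a shared mouse was not tested, so it cannot exclude that a number marks 1 mouse. In the labels a number recurs between tissues but not between the genotype and temperature groups. The main fits were run without pairs. A replicate block over the 6 libraries with shared numbers called 6885 genes, against 7538 for these libraries without the block, and 4045 past 2-fold. Under the block Cdo1 was 0.15 and Hspa8 0.21, and without it on these libraries 0.16 and 0.19. Ppara was called in neither (adjusted p = 0.128 and 0.0856). The block gave 431 temperature interactions (155 positive, 276 negative) and 0 genotype interactions (0 and 0). The temperature calls held 1 of 76 respiratory chain genes and 3 of 17 of the tricarboxylic acid cycle. They also held 3 of 19 of mitochondrial fatty acid oxidation, 1 of 18 of peroxisomal oxidation and 10 of 13 of fatty acid synthesis. Both fits had fewer libraries, and no interaction fit without the block was run on the same ones. The part of the block and that of the number of libraries thus cannot be told apart.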

Other observations

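Rbp4, the retinol carrier of plasma, was the 1 gene of the 22 on the plasma protein list whose tissue difference was called as dependent on temperature. It stood at 107, 225, 303 and 223 CPM in BAT at RT and 63.6, 34.0, 60.0 and 40.8 CPM at TN, and at 3651, 3259, 3470 and 2160 CPM in liver at TN. Hepatocyte marker sums in BAT at TN were 0.134% to 0.918% of the RT liver mean, against 0.0314% to 0.56% at RT on the same scale.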
